A study of Oryza sativa with 7 samples.

Results

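Class III peroxidases are the secreted haem peroxidases of plants. Of the 26168 genes listed in at least one of the 4 deposited tables, 109 carry the words "peroxidase precursor" in their description and were taken as members of this family. The words leave out the ascorbate and glutathione peroxidases, and the description of every member was the same, "peroxidase precursor, putative, expressed". The tables list 101 members for mir156abckl culms, 97 for mir156defghi culms, 59 for mir156abcdfghikl embryos and 82 for mir156abcdfghikl shoots. All 4 tables list 48 members, 35 are in 3 tables, 16 in 2 and 10 in 1.

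They are made with a signal peptide and act in the cell wall or the vacuole. With hydrogen peroxide as the oxidant, these enzymes cross-link lignin monomers and wall proteins, which stiffens the wall, and in another cycle they can form reactive oxygen that loosens it. In rice they form a large family with many tandem copies, and many respond to wounding or pathogens. Single members are rarely tied to one role, so most are given here by their locus name.

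The plants were Nipponbare, a japonica cultivar, grown in a paddy field. Unelongated culms, the short stem bases in which no internode has extended yet, came from 20-day-old seedlings of mir156abckl (5 mutated MIR156 genes), mir156defghi (6 mutated genes) and the wild type. Embryos of fresh wet seeds, newly harvested and not dried, and shoots of 2-week-old seedlings came from mir156abcdfghikl (10 mutated genes, MIR156e being left intact) and the wild type. The mutations were made with CRISPR/Cas9 at the sites that encode mature miR156. This microRNA represses transcripts of SPL transcription factors, so its loss relieves that repression. The labels give the code D183 for mir156abckl, D265 for mir156defghi, C403 for the mir156abcdfghikl embryos and D216 for the mir156abcdfghikl shoots, so each mutant group carries 1 code. The design text states 3 biological replicates per group, but the deposited tables hold 1 value per group, in FPKM, fragments scaled to transcript length and to the number of mapped fragments. No SD or test could therefore be computed, no difference here has a replicate check, and the depth is unknown. Differences are given as log2 (mutant FPKM + 1) minus log2 (wild-type FPKM + 1), which understates the change of weakly expressed genes, and "past 2-fold" means at least 1 or at most -1 on this scale. Each table lists genes whose higher value is at least about 0.421 to 0.447 FPKM, so a member absent from a table has no value there, and it is not counted as 0.

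Markers of each tissue were present in its samples, together with some of other tissues. The 27 listed late embryogenesis abundant and oleosin genes summed to 44926 FPKM in mutant embryos and 55059 FPKM in wild-type embryos, and the embryos also held transcripts of endosperm storage proteins, 52840 FPKM in the mutant and 67896 FPKM in the wild type. The 17 chlorophyll A-B binding protein genes summed to 8390 FPKM in mir156abcdfghikl shoots and 50102 FPKM in wild-type shoots. The meristem gene OSH1 had 44.6 FPKM in mir156abckl culms, 43.2 FPKM in mir156defghi culms and 29.9 FPKM in wild-type culms. It was also listed in embryos, with 10.8 FPKM in the mutant and 7.18 FPKM in the wild type, and was not listed in the shoot table.

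The family as a whole held a small share of the transcripts and was much stronger in culms and shoots than in embryos. Its summed FPKM was 2969 in mir156abckl culms, 2538 in mir156defghi culms and 3125 in wild-type culms. In shoots it was 3157 in mir156abcdfghikl and 3086 in the wild type. In embryos it was 541 in mir156abcdfghikl and 680.3 in the wild type. As a percent of the summed FPKM of all listed genes, this was 0.465% in mir156abckl culms, 0.402% in mir156defghi culms and 0.452% in wild-type culms, 0.0776% in mutant and 0.0832% in wild-type embryos, and 0.523% in mutant and 0.379% in wild-type shoots. The sums of the mutant and the wild type in shoots differed little, while the shares differed more, because the total over all genes was 603870 FPKM in the mutant and 814080 FPKM in the wild type. The tables were normalized separately, so levels set across tissues are descriptions.

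**Figure D1:**
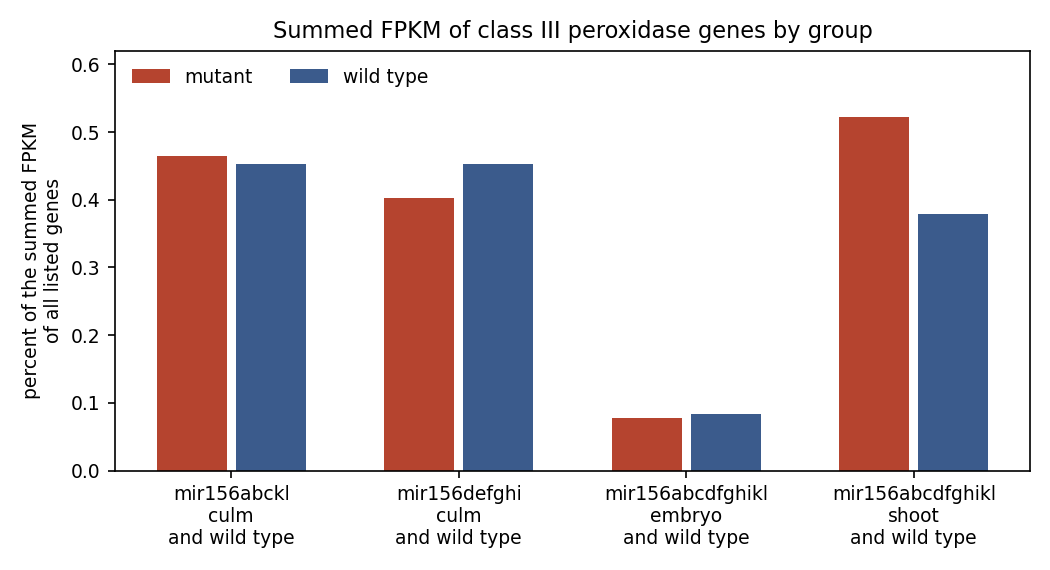
Bars show the summed FPKM of the listed class III peroxidase genes as a percent of the summed FPKM of all listed genes (y axis) for each mutant (red) and the wild type of the same table (blue); there is 1 value per group and no error. The embryo bars stand at 0.0776% and 0.0832%, below all culm and shoot bars, and the largest gap is in shoots, with 0.523% in the mutant and 0.379% in the wild type.

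Different members led the family in each wild-type tissue. Of the 48 members listed in all 3 wild-type tissues, 25 were highest in culms, 15 in shoots and 8 in embryos. With the values scaled to a common total, these counts were 28, 13 and 7. They were not made for all genes. LOC_Os04g59260 (chromosome 4, 35245106 to 35246738) was the most abundant member in wild-type culms with 360.1 FPKM, and had 10.8 FPKM in embryos and 0.113 FPKM in shoots. LOC_Os01g73170 (chromosome 1, 42429501 to 42432618) led in wild-type shoots with 433 FPKM, against 87.3 FPKM in culms and 5.80 FPKM in embryos. LOC_Os03g55420 (chromosome 3, 31530775 to 31533526) led in embryos with 101 FPKM, and had 14.2 FPKM in culms and 8.50 FPKM in shoots. The 5 most abundant members together made up 39.0% of the family's FPKM in wild-type culms, 51.4% in embryos and 49.9% in shoots.

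Members lie close together on the chromosomes. Of the 109, 74 fell into 25 groups in which neighbouring members were at most 50 kb apart (positions on TIGR release 7), and chromosome 1 carried the most members, 19. The largest tandem clusters had 7 members each, on chromosome 5 (2010114 to 2082760) and chromosome 7 (28660187 to 28692640). How the authors' software divided reads that match several copies was not measured here, so the values of close copies are uncertain, as are those of LOC_Os01g18890, LOC_Os04g51300 and LOC_Os05g42000, whose spans overlap another listed gene.

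The difference between mutant and wild type was wide in shoots and narrow in embryos, for the members and for all listed genes. Over all listed genes, the 5th to 95th percentile ran from -0.59 to 0.66 in embryos and from -2.22 to 2.57 in shoots. By the members' medians, the 2 culm mutants stood on opposite sides of the wild type. The median log2 difference of the members was 0.15 in mir156abckl culms, -0.35 in mir156defghi culms, 0.00 in embryos and 0.54 in shoots, beside -0.02, -0.02, 0.03 and 0.13 for all listed genes. Of the 109 members, 78 were past 2-fold in at least one comparison and 31 in none. Of all 26168 listed genes, 41.0% were past 2-fold in at least one. Across the 4 comparisons, 2 members were past 2-fold in both directions, a count that was not made for all genes.

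**Figure D2:**
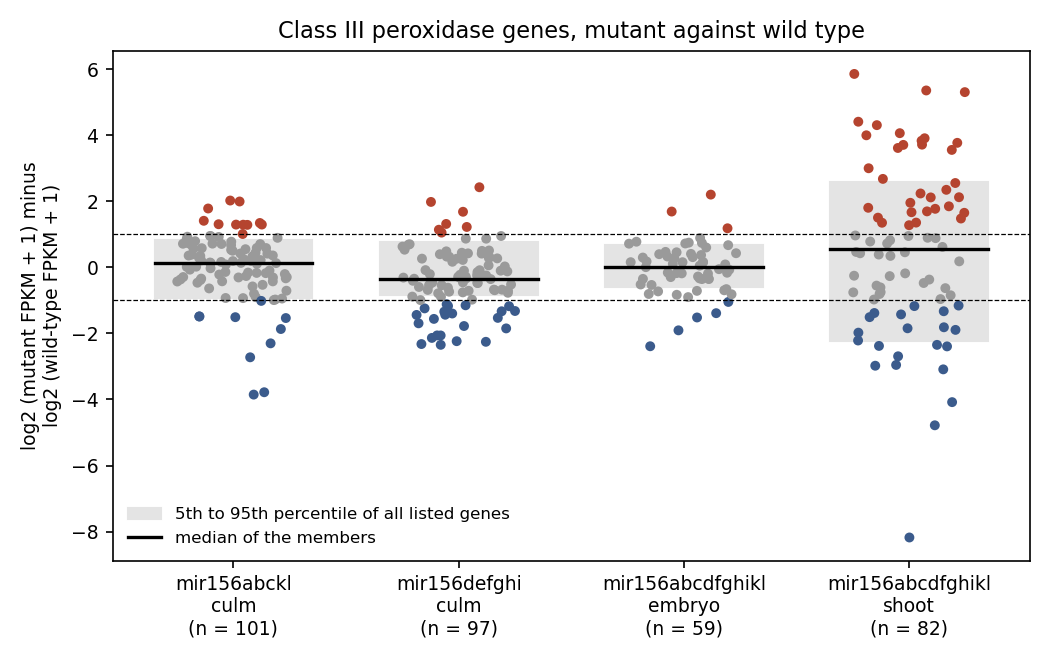
Each point is 1 class III peroxidase gene; the y axis is log2 (mutant FPKM + 1) minus log2 (wild-type FPKM + 1), dashed lines mark 2-fold, red and blue points lie past it, black lines are the members' medians and grey boxes span the 5th to 95th percentile of all listed genes. Members spread from -8.18 to 5.85 in shoots, and in embryos 51 of 59 lie between the dashed lines.

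In mir156abckl culms, compared with the wild type to see what mutation of the group II MIR156 genes does in the stem base, 11 members were past 2-fold higher, which is 10.9% of the members listed, beside 3.17% of all listed genes. In the lower direction there were 10 members, or 9.90%, beside 4.50% of all genes. LOC_Os03g13200 (chromosome 3, 7124842 to 7127285) had the largest positive difference, with 18.7 FPKM in mir156abckl and 3.85 FPKM in the wild type (log2 difference 2.02). It was followed by LOC_Os11g43980 (4.24 FPKM in mir156abckl, 0.316 FPKM in the wild type) and LOC_Os05g41990 (31.7 FPKM in mir156abckl, 8.53 FPKM in the wild type). LOC_Os01g10850, LOC_Os01g22230 and LOC_Os10g39170 had between 7.87 and 11.6 FPKM in mir156abckl and between 2.34 and 3.98 FPKM in the wild type.

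The differences of the lower members of mir156abckl culms reached -3.85. LOC_Os10g02070 (chromosome 10, 677085 to 678882) had 1.24 FPKM in mir156abckl and 31.4 FPKM in the wild type (log2 difference -3.85). LOC_Os03g13210 (chromosome 3, 7128180 to 7130342) had 2.77 FPKM in mir156abckl and 50.8 FPKM in the wild type. It is the next member along the chromosome to LOC_Os03g13200, the one with the largest difference the other way. LOC_Os01g73200 had 1.77 FPKM in mir156abckl and 17.3 FPKM in the wild type, and LOC_Os04g55740 had 1.76 FPKM in mir156abckl and 12.6 FPKM in the wild type. LOC_Os06g35520 had 4.20 FPKM in mir156abckl and 18.0 FPKM in the wild type, and LOC_Os08g02110 had 5.86 FPKM in mir156abckl and 18.9 FPKM in the wild type. With nothing added to the FPKM values, 19 members were past 2-fold higher and 16 lower in this comparison. Shares of all genes for that setting are not given, so these 2 counts are not read as a trait of the family.

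In mir156defghi culms, in which the group I MIR156 genes were mutated, the balance was on the lower side. Past 2-fold lower were 23 of 97 members, or 23.7%, beside 3.44% of all listed genes, and past 2-fold higher were 7, or 7.22%, beside 2.65% of all genes. Of the 97, 65 had a lower FPKM than the wild type and 32 a higher one, whereas 52.8% of all listed genes were lower. LOC_Os10g02070 again had the most negative difference, with 5.33 FPKM in mir156defghi and 31.2 FPKM in the wild type (log2 difference -2.35). LOC_Os04g55740 had 1.71 FPKM in mir156defghi and 12.6 FPKM in the wild type, and LOC_Os03g13210 had 9.94 FPKM in mir156defghi and 50.5 FPKM in the wild type. These 3 were low in both culm mutants.

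Other members were low in mir156defghi culms and within 2-fold of the wild type in mir156abckl culms. LOC_Os01g19020 (chromosome 1, 10748602 to 10750234) had 4.86 FPKM in mir156defghi, 47.6 FPKM in mir156abckl and 27.1 FPKM in the wild type. LOC_Os03g25330 (chromosome 3, 14469691 to 14471256) had 2.08 FPKM in mir156defghi, 10.7 FPKM in mir156abckl and 12.6 FPKM in the wild type. LOC_Os05g04450 had 0.230 FPKM in mir156defghi, 6.45 FPKM in mir156abckl and 4.16 FPKM in the wild type. In the higher direction, LOC_Os11g43980 (chromosome 11, 26572251 to 26574119) had the largest difference in mir156defghi, with 6.05 FPKM against 0.314 FPKM in the wild type (log2 difference 2.42). LOC_Os03g13200 had 18.1 FPKM in mir156defghi and 3.83 FPKM in the wild type, close to its level in mir156abckl. LOC_Os06g48020 stood out in mir156defghi alone, with 10.9 FPKM there, 2.76 FPKM in mir156abckl and 2.71 FPKM in the wild type, and LOC_Os01g22230, LOC_Os03g32050 and LOC_Os12g34524 had log2 differences from 1.14 to 1.31.

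Both culm comparisons share their wild type and so are not independent. Between the tables its values differed by a factor of 0.997 to 1.01. Set against each other directly, after bringing the tables to one scale by the median of that ratio, 16 of 97 members were past 2-fold lower in mir156defghi than in mir156abckl, or 16.5%, beside 2.01% of all genes listed in both tables. In the higher direction there were 4 members, or 4.12%, beside 2.44% of all genes. This comparison was added after values had been seen. The members with more in mir156defghi were LOC_Os03g13210, LOC_Os06g35520, LOC_Os06g48020 and LOC_Os10g02070. Among the lower ones, LOC_Os01g19020 had a log2 difference of -3.05 and LOC_Os05g41990 of -2.52, with 4.68 FPKM in mir156defghi, 31.7 FPKM in mir156abckl and 8.53 FPKM in the wild type.

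RCc3 (LOC_Os02g44310), a gene known for expression in rice roots, was higher in mir156abckl and lower in mir156defghi than in the wild type. It had 231 FPKM in mir156abckl culms, 54.8 FPKM in mir156defghi culms and 119 FPKM in wild-type culms. CRL1 (LOC_Os03g05510), which is needed for crown root initiation, had 1.79 FPKM in mir156abckl, 2.17 FPKM in mir156defghi and 1.48 FPKM in the wild type. In culms, the 17 chlorophyll A-B binding protein genes totalled 939 FPKM in mir156abckl, 1153 FPKM in mir156defghi and 634 FPKM in the wild type. These genes mark green tissue. The paper reports fewer adventitious roots in seedlings of both mutants than in the wild type. How much root or green tissue the culm samples held, and its part in the peroxidase differences, was not tested. In tissue samples like these, fewer cells of one type and less RNA per cell cannot be told apart.

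Of the most abundant members of the culm, LOC_Os04g59260 was close to the wild type in both mutants, while LOC_Os04g59150 and LOC_Os07g48020 were lower. LOC_Os04g59260 had 393 FPKM in mir156abckl, 329 FPKM in mir156defghi and 360.1 FPKM in the wild type. LOC_Os04g59150 (chromosome 4, 35187372 to 35189338) had 182 FPKM in mir156abckl, 206 FPKM in mir156defghi and 318 FPKM in the wild type, and was lower in both mutants without reaching 2-fold. LOC_Os07g48020 (chromosome 7, 28673753 to 28675433) had 88.2 FPKM in mir156abckl, 68.6 FPKM in mir156defghi and 176 FPKM in the wild type, with log2 differences of -0.99 in mir156abckl, just inside 2-fold, and -1.34 in mir156defghi.

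In the tandem cluster on chromosome 5, 2 of 7 members, LOC_Os05g04440 and LOC_Os05g04450, were past 2-fold lower in mir156defghi culms. All 7 had less FPKM in mir156defghi than in the wild type, with log2 differences from -2.06 to -0.21, and 6 of the 7 had more in mir156abckl than in the wild type, with differences of up to 0.71, none past 2-fold. LOC_Os05g04440 was listed at 0 FPKM in mir156defghi, with 3.83 FPKM in mir156abckl and 1.96 FPKM in the wild type. LOC_Os05g04470 (chromosome 5, 2061826 to 2063397), one of the peroxidase genes that the blast-resistance regulator Bsr-d1 has been reported to control in rice, had 3.55 FPKM in mir156defghi, 9.84 FPKM in mir156abckl and 6.34 FPKM in the wild type. The strong members of the cluster, LOC_Os05g04380 and LOC_Os05g04500, had 173 and 46.7 FPKM in mir156defghi, 257 and 89.6 FPKM in mir156abckl, and 200.3 and 80.9 FPKM in the wild type. LOC_Os05g04410 had 8.10 FPKM in mir156defghi, 16.7 FPKM in mir156abckl and 12.8 FPKM in the wild type. LOC_Os05g04450, given above, was also lowest in mir156defghi, and LOC_Os05g04490, the exception, was lower in both mutants, at 7.12 FPKM in mir156defghi, 6.37 FPKM in mir156abckl and 12.8 FPKM in the wild type.

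The cluster on chromosome 7 was split. In mir156defghi culms, 4 of its 6 listed members were lower and 2 higher, and in mir156abckl culms 3 were lower and 3 higher. LOC_Os07g48010 (chromosome 7, 28669497 to 28671387) had 10.1 FPKM in mir156defghi, 35.9 FPKM in mir156abckl and 45.7 FPKM in the wild type. Its neighbour LOC_Os07g48030 had 169 FPKM in mir156defghi, 213 FPKM in mir156abckl and 163 FPKM in the wild type, and LOC_Os07g47990 had 128 FPKM in mir156defghi, 118 FPKM in mir156abckl and 96.2 FPKM in the wild type. LOC_Os07g48060 was within 2-fold of the wild type in both mutants, LOC_Os07g48040 was under 1 FPKM in all 3 groups, and LOC_Os07g48050 was not listed in culms. In shoots the same cluster held opposite differences, with 22.8 FPKM for LOC_Os07g48060 in mir156abcdfghikl and 0.822 FPKM in the wild type, and with 2.19 FPKM for LOC_Os07g47990 in mir156abcdfghikl and 13.8 FPKM in the wild type.

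**Figure D3:**
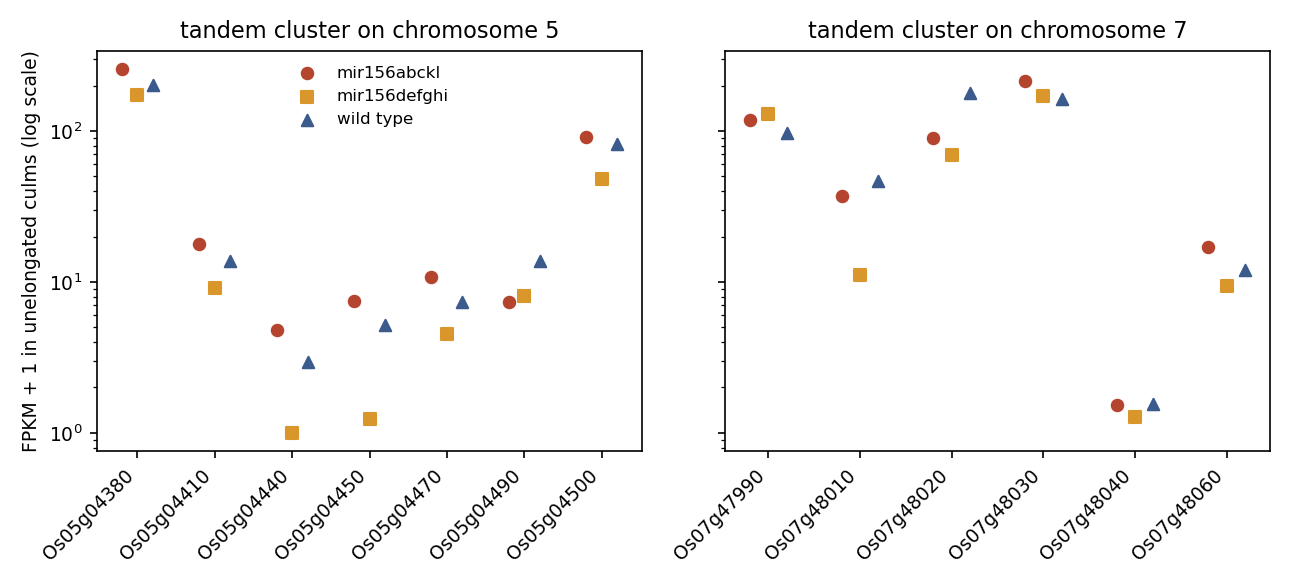
FPKM + 1 in unelongated culms (log scale, 1 value per group) for the listed members of the tandem clusters on chromosomes 5 and 7, with mir156abckl as red circles, mir156defghi as orange squares and the wild type as blue triangles. On chromosome 5 the square lies below the triangle for all 7 members; on chromosome 7 it lies below for 4 of 6.

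In fresh seed embryos, where the study asked what the mir156 mutations do in the dormant seed, few members were past 2-fold. Past 2-fold higher in mir156abcdfghikl were 3 of 59 members, or 5.08%, beside 1.97% of all listed genes, and past 2-fold lower were 5, or 8.47%, beside 1.46% of all genes. LOC_Os07g48030 had 6.57 FPKM in mutant embryos and 0.646 FPKM in wild-type embryos, the largest positive difference. LOC_Os01g22370 (chromosome 1, 12578188 to 12582301) had 13.4 FPKM in the mutant and 3.47 FPKM in the wild type, and LOC_Os05g04380 had 10.8 FPKM in the mutant and 4.22 FPKM in the wild type. These 3 were the higher ones.

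The lower members were weak or moderate in the wild-type embryo. LOC_Os07g44550 (chromosome 7, 26603636 to 26604970) had 2.06 FPKM in mir156abcdfghikl and 15.0 FPKM in the wild type (log2 difference -2.39). LOC_Os07g49360 had 0.478 FPKM in the mutant and 4.55 FPKM in the wild type, and LOC_Os02g14430 had 2.38 FPKM in the mutant and 5.98 FPKM in the wild type. LOC_Os06g35480 and LOC_Os01g15830, described with the shoots, complete the 5. Only LOC_Os07g44550 and LOC_Os02g14430 of these had at least 1 FPKM in both groups.

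The members that led the family in embryos were all somewhat lower in the mutant and within 2-fold. LOC_Os03g55420 had 78.7 FPKM in mutant embryos and 101 FPKM in wild-type embryos, LOC_Os01g73220 had 53.2 FPKM in the mutant and 84.6 FPKM in the wild type, and LOC_Os04g39100 had 49.9 FPKM in the mutant and 64.2 FPKM in the wild type. LOC_Os02g14170 and LOC_Os04g56180 had 39.2 and 42.5 FPKM in the mutant, against 50.3 and 48.1 FPKM in the wild type. LOC_Os02g58720 had 29.4 FPKM in the mutant and 49.4 FPKM in the wild type. The log2 differences of these 6 lay between -0.73 and -0.18. The total over all listed genes was also lower in mutant embryos, at 697208 FPKM against 817669 FPKM in the wild type. Across all listed members the median was 0.00, but it was -0.18 over those that reached 1 FPKM in both. The endosperm genes summed to less in the mutant (52840 FPKM) than in the wild type (67896 FPKM), with 4 of 34 past 2-fold lower and 1 higher, and the chlorophyll A-B binding protein genes to more (259 FPKM in the mutant and 96.7 FPKM in the wild type, 13 of 16 past 2-fold higher). The part of either in the peroxidase values was not tested.

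In 2-week-old shoots, 54 of 82 listed members were past 2-fold. Past 2-fold higher in mir156abcdfghikl were 33 of 82 members, or 40.2%, beside 21.4% of all listed genes, and past 2-fold lower were 21, or 25.6%, beside 18.7% of all genes. On a 4-fold limit there were 21 higher and 11 lower members, beside 8.15% of all genes higher and 6.56% lower. LOC_Os01g10850 (chromosome 1, 5789308 to 5791121) had the largest positive difference, with 73.6 FPKM in mir156abcdfghikl shoots and 0.290 FPKM in wild-type shoots (log2 difference 5.85). LOC_Os11g10460 (chromosome 11, 5699784 to 5702109) had 65.3 FPKM in the mutant and 0.621 FPKM in the wild type, and LOC_Os05g41990 (chromosome 5, 24583249 to 24584945) had 92.2 FPKM in the mutant and 1.36 FPKM in the wild type. LOC_Os11g43980 was listed at 20.2 FPKM in the mutant and at 0 in the wild type. LOC_Os04g56180 had 23.1 FPKM in the mutant and 0.220 FPKM in the wild type. LOC_Os10g39170 (chromosome 10, 20900131 to 20902342), the other peroxidase gene reported under Bsr-d1 control in rice, had 41.0 FPKM in the mutant and 1.52 FPKM in the wild type (log2 difference 4.06).

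The lower members of the shoot included the second most abundant peroxidase transcript of the wild type. LOC_Os02g14440 (chromosome 2, 7948542 to 7950060) had 0.278 FPKM in mir156abcdfghikl shoots and 369 FPKM in wild-type shoots, a log2 difference of -8.18, and was not listed in culms or embryos. LOC_Os07g48040 had 0.343 FPKM in the mutant and 36.0 FPKM in the wild type, and LOC_Os06g20150 (chromosome 6, 11559569 to 11560929) had 7.08 FPKM in the mutant and 136 FPKM in the wild type. LOC_Os01g73200, LOC_Os01g22249 and LOC_Os03g55410 had 2.37, 6.22 and 6.82 FPKM in the mutant, against 27.7, 55.9 and 59.6 FPKM in the wild type. LOC_Os01g73170, the leading member of wild-type shoots, had 122 FPKM in the mutant and 433 FPKM in the wild type (log2 difference -1.82).

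The order of the leading members differed in mutant shoots, where LOC_Os05g04380 and LOC_Os01g19020 stayed among the 5 most abundant. LOC_Os05g04380 (chromosome 5, 2010114 to 2015088) was first there, with 496 FPKM in the mutant and 268 FPKM in the wild type. LOC_Os02g14160 followed with 169.9 FPKM in the mutant and 11.0 FPKM in the wild type, and LOC_Os10g02040 with 164 FPKM in the mutant and 119 FPKM in the wild type. LOC_Os01g19020 had 149 FPKM in the mutant and 262 FPKM in the wild type. Of the 10 members with at least 100 FPKM in wild-type shoots, none was past 2-fold higher in the mutant and 5 were past 2-fold lower, beside 6.88% higher and 62.7% lower of all genes at that level. Of the 18 members under 1 FPKM in the wild type, 12 were past 2-fold higher, beside 46.8% of all genes at that level, and none could be past 2-fold lower on a scale with 1 FPKM added. The wild-type level is part of the difference, so these counts by level are descriptions.

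**Figure D4:**
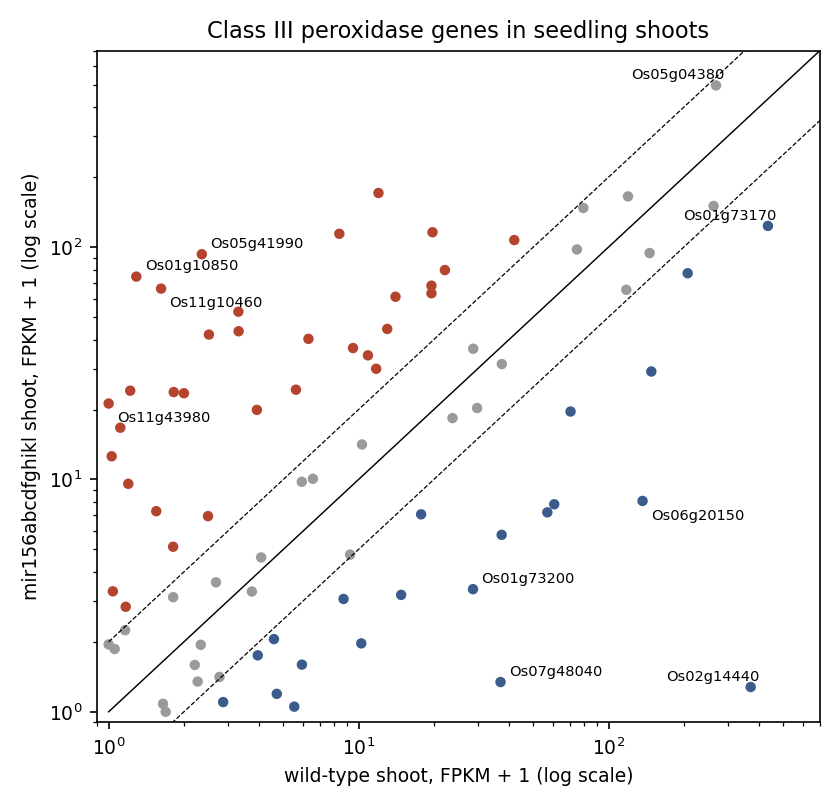
FPKM + 1 of the 82 listed class III peroxidase genes in mir156abcdfghikl shoots (y axis) against wild-type shoots (x axis), both on log scales, with the line of equality, dashed 2-fold lines and red and blue points past them. LOC_Os02g14440 lies at the far lower right (0.278 FPKM in the mutant, 369 FPKM in the wild type) and LOC_Os01g10850 at the upper left (73.6 FPKM in the mutant, 0.290 FPKM in the wild type).

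Levels of the shoot members in the other wild-type tissues were set beside their shoot difference. Of the 33 higher members, 23 were listed in embryos, with a median of 7.90 FPKM in wild-type embryos, and of the 21 lower members 12 were listed, with a median of 1.42 FPKM. Over the 49 members listed in both tables, the shoot difference and the log2 wild-type embryo level had a Spearman rho of 0.39, a description across genes, which are not replicates, with no library shared between the tables. For the wild-type shoot level, which is itself part of the difference, rho was -0.51 over 82 members. The median in wild-type culms was 12.0 FPKM for the higher members listed there and 13.1 FPKM for the lower ones. These medians and rho values were not computed over all genes, so they are not read as a trait of the family.

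The chlorophyll A-B binding protein genes, a mark of green tissue, were past 2-fold lower for 16 of 17 (8390 FPKM in the mutant and 50102 FPKM in the wild type, none at 0). The late embryogenesis abundant and oleosin genes summed to 115 FPKM in the mutant and 1076 FPKM in the wild type, with 3 of 14 past 2-fold higher and 3 lower. The part of tissue make-up or of developmental stage in the peroxidase differences was not tested. The median log2 difference over all genes that reached 1 FPKM in mutant and wild type alike was 0.08, and with differences taken relative to it 33 members were past 2-fold higher and 23 lower. With at least 1 FPKM required in both groups, 21 of 52 members were past 2-fold higher and 13 lower. Shares of all genes for the centred and the filtered counts are not given, so these counts are not read as a trait of the family.

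The embryo and the shoot of mir156abcdfghikl differed in which members were higher or lower. Over the 49 members listed in both, 11 were higher and 7 lower in both tissues, 19 were lower in embryos and higher in shoots, and 12 were higher in embryos and lower in shoots. Taken singly, 54.5% of all listed genes were higher in mutant embryos and 54.6% in mutant shoots. The combined signs were not counted over all genes, so they are not read as a trait of the family. Of the 49 members, none was past 2-fold higher in both tissues and 1, LOC_Os02g14430, was past 2-fold lower in both, beside 0.599% higher and 0.292% lower in both of all genes listed in both tables. Of the 3 members past 2-fold higher in embryos, 2 were listed in shoots. LOC_Os06g35480 (chromosome 6, 20676129 to 20677667) was past 2-fold in opposite directions, with 0.870 FPKM in mutant and 4.36 FPKM in wild-type embryos, and 11.6 FPKM in mutant and 0.0283 FPKM in wild-type shoots. LOC_Os01g15830 (chromosome 1, 8917546 to 8919971) likewise differed in direction, with 0.655 FPKM in mutant and 3.33 FPKM in wild-type embryos, and 78.7 FPKM in mutant and 21.1 FPKM in wild-type shoots. Both members were past 2-fold higher in mir156abckl culms.

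**Figure D5:**
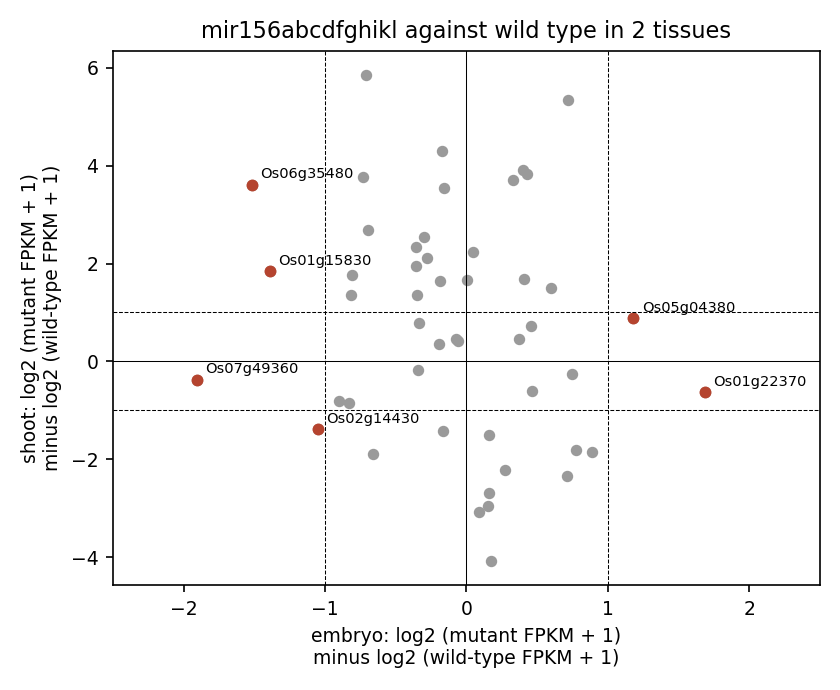
Log2 difference (1 FPKM added, mutant minus wild type) in shoots (y axis) against embryos (x axis) for the 49 class III peroxidase genes listed in both tables, with dashed lines at 2-fold and red, named points past 2-fold in embryos. LOC_Os06g35480 (-1.52 in embryos, 3.61 in shoots) and LOC_Os01g15830 (-1.39 and 1.85) lie at the upper left.

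Of the 109 members, 2 were past 2-fold higher and 5 past 2-fold lower in 3 of the 4 comparisons, and none in all 4. Of all 26168 listed genes, 0.990% were past 2-fold higher and 0.772% lower in at least 3. Both totals take in genes listed in fewer than 3 tables, which could not be counted. For all of these members but LOC_Os02g14430, 2 of the 3 comparisons are those in culms, which share their wild type and are not independent. LOC_Os01g22230 (chromosome 1, 12499922 to 12504215) was past 2-fold higher in both culm mutants and in shoots, with 11.6 FPKM in mir156abckl culms, 11.3 FPKM in mir156defghi culms and 3.98 FPKM in wild-type culms, and with 39.3 FPKM in mutant and 5.30 FPKM in wild-type shoots. In embryos it was lower, at 8.33 FPKM in the mutant and 14.1 FPKM in the wild type. LOC_Os11g43980, not listed in embryos, was past 2-fold higher in the 3 other comparisons.

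Past 2-fold lower in 3 comparisons were LOC_Os01g22352, LOC_Os01g73200, LOC_Os02g14430, LOC_Os06g32990 and LOC_Os06g33100. LOC_Os01g22352 (chromosome 1, 12564282 to 12570032), in the same tandem cluster as LOC_Os01g22230, had 50.2 FPKM in mir156abckl culms, 65.8 FPKM in mir156defghi culms and 145 FPKM in wild-type culms, and 18.6 FPKM in mutant and 69.5 FPKM in wild-type shoots. LOC_Os01g73200 (chromosome 1, 42441659 to 42442958) had 1.77 FPKM in mir156abckl culms, 4.06 FPKM in mir156defghi culms and 17.3 FPKM in wild-type culms. LOC_Os06g32990 had 4.11 FPKM in mir156abckl culms, 3.40 FPKM in mir156defghi culms and 13.3 FPKM in wild-type culms, and 0.970 FPKM in mutant and 9.25 FPKM in wild-type shoots. LOC_Os06g33100 was weaker, at 1.23 FPKM in mir156abckl culms, 0.788 FPKM in mir156defghi culms and 3.52 FPKM in wild-type culms. LOC_Os02g14430 was past 2-fold lower in mir156defghi culms, embryos and shoots, and had 4.09 FPKM in mir156abckl culms, 1.75 FPKM in mir156defghi culms and 5.26 FPKM in wild-type culms.

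Genes that make, remove or share the substrates of these peroxidases were counted by the same limit. Among the enzymes that remove hydrogen peroxide inside the cell, of 3 catalase genes, 2 were past 2-fold lower in mutant shoots, and their summed FPKM was 683 in the mutant and 2544 in the wild type. Of the 13 glutathione peroxidase and peroxiredoxin genes, 7 were past 2-fold lower and 1 higher in mutant shoots, and of the 9 ascorbate peroxidase genes 3 were lower and 1 higher. The summed FPKM of catalase in culms was 729 in mir156abckl, 529 in mir156defghi and 1333 in the wild type, with 1 gene past 2-fold lower in each mutant and 1 higher in mir156defghi.

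Of 7 respiratory burst oxidase genes, whose products form superoxide outside the cell, none was past 2-fold in culms or embryos, and in shoots 2 were higher and 1 lower. Superoxide dismutase, which turns superoxide into hydrogen peroxide, had 1 of 8 genes past 2-fold in shoots, a lower one, and none in the 3 other comparisons.

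The genes that act on the same wall phenolics were mixed. Laccases, copper enzymes that also couple lignin monomers, had 10 of 19 genes past 2-fold higher and 5 lower in mutant shoots, while in culms 4 were lower and none higher in mir156abckl, and 4 lower and 1 higher in mir156defghi. The summed laccase FPKM in shoots went the other way from these counts, with 158 in the mutant and 234 in the wild type. Dirigent genes, whose products steer phenolic coupling, had 11 of 25 past 2-fold higher and 3 lower in mutant shoots, 7 of 31 higher and 3 lower in mir156abckl culms, and 2 of 27 higher and 4 lower in mir156defghi culms. Of the 20 enzymes of lignin monomer synthesis listed in shoots, 6 were past 2-fold lower and 1 higher. Their summed FPKM was 2684 in the mutant and 3642 in the wild type. These counts stand beside the shares of all genes given above for each comparison, and they were not tested.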

How the data were processed

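RNA was sequenced from culms, embryos and shoots as stranded poly(A)-selected libraries. The authors filtered the reads, aligned them with HISAT2 to the TIGR release 7 rice genome and computed expression with Cufflinks 2.2.1 (version per the submitters' processing notes) and cuffdiff. The deposited values used here are FPKM, 1 per group over 3 biological replicates, scaled within each of the 4 tables. Whether counting used strand is not given in the sources used here. The deposited tables also hold the authors' own log2 ratios, directions, p-values and q-values, which were not used.

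From the FPKM, log2 differences with 1 FPKM added and counts past 2-fold were computed for all listed genes without a filter (pandas 2.3.3 and numpy 2.4.6 under Python 3.11.15). The counting step was checked only on simulated 4-fold changes of genes that were not weakly expressed. That check does not bear on the calls of weakly expressed members. Depth is unknown, no per-replicate values were used, and so no interval, test or p-value was computed. Both culm tables share the wild type, so the culm comparisons are not independent. The RefSeq gene table held 0 of the 109 members, and positions are those of the deposited tables.

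Members were named if they were among the 5 most abundant or the 6 largest or smallest differences past 2-fold of a comparison, were past 2-fold the same way in at least 3 comparisons or opposite ways in embryos and shoots, lay in the largest tandem cluster, were reported downstream of Bsr-d1, or led a wild-type tissue. The clusters on chromosomes 5 and 7 tied as the largest, and both were taken. Abundance was ranked by the mean of mutant and wild type. LOC_Os02g14160 and LOC_Os02g58720, named outside these rules, were among the 5 most abundant of a single group. LOC_Os01g18890, LOC_Os04g51300 and LOC_Os05g42000 were named only for their overlap with another gene. Members, marker lists and gene classes were chosen with earlier results of these data known. Alternatives changed the FPKM added, the filter, the centring, the fold limit, the treatment of overlapping genes, the sums and the cluster distance.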

Additional observations from a re-analysis of the deposited data

Results flagged for a closer look

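Differences of opposite direction in embryos and shoots of mir156abcdfghikl, each past 2-fold, drew attention to 2 members. For LOC_Os06g35480 the shoot difference was 3.61 and the embryo difference -1.52 (log2, 1 FPKM added), which are 5.13 apart. For LOC_Os01g15830 the shoot difference was 1.85 and the embryo difference -1.39, which are 3.24 apart. With 1 value per group the difference between the tissues was not tested, and the embryo and shoot mutants carry different line codes.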

How the results depend on the processing

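Of 110 alternative values, 79 stayed within the tolerance of the reported one (1.5 times for a count or ratio, 0.1 for a median log2 difference). In mir156abckl culms the 11 higher members became 18 with 0.1 FPKM added, 19 with nothing added, 27 at 1.5-fold and 1 at 4-fold, and the 10 lower ones 16 with nothing added, 19 at 1.5-fold and 4 at 4-fold. In mir156defghi culms the 7 higher became 13 at 1.5-fold and 1 at 4-fold, the 23 lower 39 and 7, and the median was -0.48 with 0.1 FPKM or nothing added. In embryos the 3 higher became 12 with 0.1 FPKM or nothing added, 11 at 1.5-fold and 1 at 4-fold, and the 5 lower became 8 with nothing added, 2 with at least 1 FPKM in both groups, 13 at 1.5-fold and 1 at 4-fold. The embryo median, 0.00, lies next to 0 and changed sign to -0.01 when centred on all genes, -0.07 without genes that overlap another, -0.18 over members that reached 1 FPKM in both groups, and -0.16 over those that reached it in either. In shoots the 33 higher became 21 with at least 1 FPKM in both groups or at 4-fold, the 21 lower 13 and 11, and the median was 0.65 with 0.1 FPKM added, 0.67 with nothing added and 0.67 without genes that overlap another. The family's share in mir156abckl culms over that in the wild type was 1.03, and the summed FPKM not divided by the total, an alternative chosen after seeing the data, gave 0.950, a change of direction. At 4-fold, the shares of all listed genes were 0.373% higher and 0.882% lower in mir156abckl culms, and 0.315% and 0.396% in mir156defghi culms. In embryos they were 0.116% higher and 0.237% lower, and in shoots 8.15% and 6.56%. Shares of all genes under the other alternatives are not given. Apart from the limits and filters themselves, the cause of these changes was not tested. No paired analysis was possible because each group has 1 deposited value, and for the same reason no replicate could be left out.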
